A study of Danio rerio with 13 samples.

Results

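Forced Notch activation was measured in neural crest cells of the zebrafish pharyngeal arches, the embryonic pouches of the face from which the jaw skeleton forms. The intracellular domain of the Notch1a receptor (NICD) was switched on by heat shock, and RNA of sorted arch cells was compared with RNA from 2 heat-shocked controls. Genes entered when their level was at least 3 RPKM (reads corrected for transcript length and for sequencing depth) in at least 1 of these 3 libraries. This left 8567 of the 27911 genes in the table.

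All embryos carried *sox10*:DsRed, which labels neural crest and the ear, and *fli1a*:EGFP, which labels arch crest, blood vessels and macrophages. Cells with both labels were sorted at 36 hours post-fertilization (hpf). The NICD library came from *hsp70I*:Gal4; *UAS*:NICD embryos, in which a heat-inducible promoter drives the yeast activator Gal4 and Gal4 drives NICD. One control carried *hsp70I*:Gal4 with no *UAS* transgene (the Gal4 control), and the other carried *UAS*:Edn1 with no Gal4 (the *UAS* control). All 3 groups were held at 40 °C from 20 to 24 hpf in the heat-shock protocol, and embryos for the 36 hpf stage were moved to 22 °C at 27 hpf. The heat-inducible promoter is not restricted to arch crest, so NICD could also reach cells around the arches. Double transgenic embryos were picked from tail biopsies at 24 hpf. A library with *UAS*:NICD and no Gal4 was not analysed here.

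Notch receptors are cut after binding a ligand on a neighbouring cell, and the freed intracellular domain enters the nucleus and joins the DNA-binding protein Rbpj to switch on genes, among them the Her and Hey family of transcriptional repressors. NICD mimics the cut receptor without a ligand. In the arches, the ligand Jagged1b acts in the dorsal (upper) part, while Endothelin 1 (Edn1) is secreted ventrally and switches on the Dlx and Hand genes of the lower jaw.

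Each genotype was represented by 1 library, so differences could not be set against a spread between replicates and were not tested. A gene is called higher with NICD when its level was at least 2-fold above the higher control, and called lower when it was at least 2-fold below the lower control. The fold given is always that against this nearer control. In sorted pools, fewer cells of a type and less RNA per cell cannot be told apart. Depth recovered from the steps between RPKM values was 0.945 of that of the wild-type 36 hpf library for NICD, 1.23 for the Gal4 control and 0.797 for the *UAS* control. At 3 RPKM the median gene with recovered reads held 274 reads with NICD, 357 in the Gal4 control and 231 in the *UAS* control. Intervals printed beside folds are 95% Clopper-Pearson intervals on recovered reads, compare libraries and not genotypes, and cover counting error only. Arch crest markers were present in all 3 libraries: *dlx2a*, a homeobox gene of migrating and arch crest, was at 127 RPKM with NICD, 145 in the Gal4 control and 190 in the *UAS* control. Markers of other cells were not absent. The endothelial gene *pecam1* was at most 0.0708 RPKM and the muscle regulator *myod1* at most 0.555 RPKM in these libraries, but the endothelial receptor *kdrl* was between 3.80 and 6.16 RPKM, the muscle gene *actc1b* between 3.71 and 8.395 RPKM, and the more abundant *hbbe1.1* globin entry at 195 RPKM with NICD, 365 in the Gal4 control and 28.5 in the *UAS* control.

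With NICD, 284 genes (3.32% of those entered) were higher than both controls and 104 genes (1.21%) were lower, together 388 genes (4.53%). Against the Gal4 control alone 5.12% were higher and 2.03% lower, and against the *UAS* control alone 5.38% and 2.19%. The controls themselves differed by at least 2-fold in 225 genes (2.63%). The median fold was 2.83 among the higher genes, with a maximum of 35.4, and 2.84 among the lower genes, with a maximum of 99.2. A fold of at least 10 was reached by 23 higher and 9 lower genes. Of the higher genes, 163 passed the RPKM minimum only through the NICD library and had to differ to be counted, and among the 8091 genes that reached 3 RPKM in a control 121 (1.5%) were called higher. Of the lower genes, 68 were under 3 RPKM with NICD. These passed the minimum only through a control, as did 562 of all genes entered, and so had to lie below that control. The shares and list counts of lower genes given later include them and were not repeated without them. Just inside the limits stood *mgst1.1*, at 2.001-fold higher, and just outside stood *selk* (higher by 1.999-fold) and *mrrf* (lower by 1.99-fold).

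**Figure D1:**
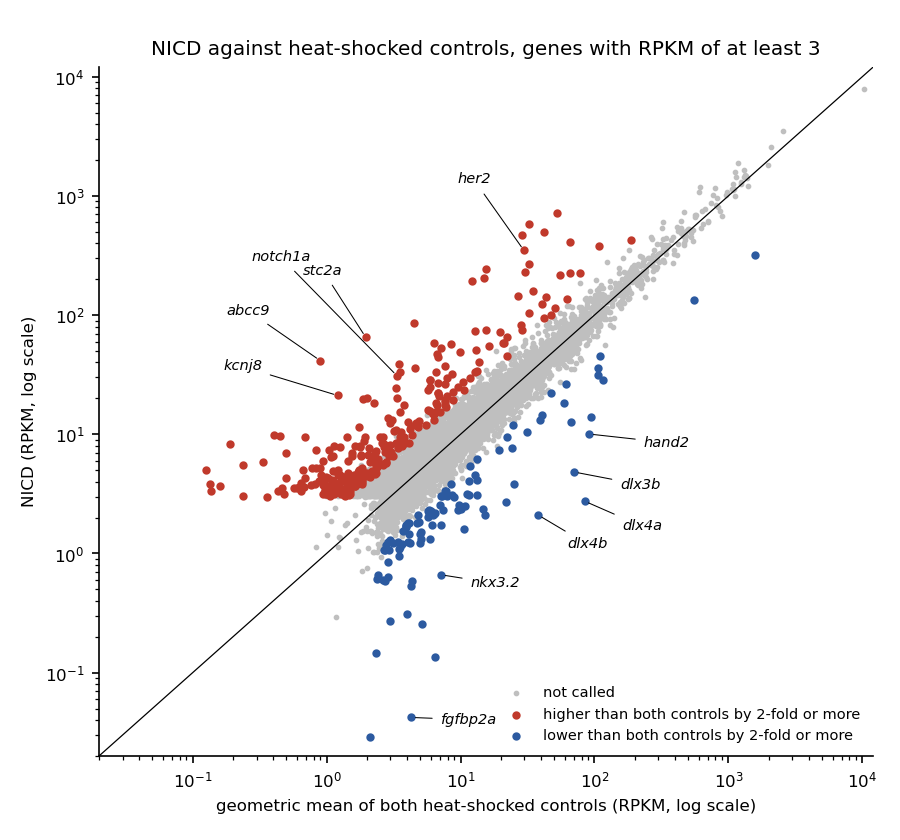
RPKM with NICD (vertical, log scale) against the geometric mean of the 2 heat-shocked controls (horizontal, log scale) for the 8567 genes entered, 1 point a gene. The line marks equal levels, the 284 red genes lie above both controls and the 104 blue genes below both by at least 2-fold, with *abcc9* and *stc2a* far above the line and *fgfbp2a* and the Dlx genes far below it.

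The receptor gene that the transgene encodes in part had the largest fold of the receptors entered. *notch1a* (ENSDARG00000103554) was at 31.0 RPKM with NICD, 3.44 in the Gal4 control and 3.26 in the *UAS* control, a 9.03-fold difference. Reads of the transgene and of the native gene cannot be told apart in a value per gene. *notch3*, the receptor known for its role in mural cells of blood vessels, was at 32.1 RPKM with NICD, 7.34 in the Gal4 control and 10.3 in the *UAS* control, and was called higher (3.11-fold). *notch2* was not called, at 10.8 RPKM with NICD, 13.6 in the Gal4 control and 18.2 in the *UAS* control.

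Of 7 ligand genes entered, 2 were higher and 1 was lower. The delta ligand *dlc* was at 7.73 RPKM with NICD, 2.40 in the Gal4 control and 1.78 in the *UAS* control (3.22-fold, interval 2.92 to 3.57). A second delta ligand, *dld*, was at 4.399 RPKM with NICD, 1.16 in the Gal4 control and 1.5 in the *UAS* control (2.93-fold). The vascular ligand *dll4* went the other way, with 1.23 RPKM under NICD, 3.07 in the Gal4 control and 3.18 in the *UAS* control (2.49-fold lower). It lost the call when the unshocked wild-type libraries at 36 hpf, wild type and *jag1b* sibling, were added as controls (1.88-fold). Both ligands called higher reached 3 RPKM only with NICD and so had to be above the controls. *jag1b*, the dorsal arch ligand, lay above both controls without reaching the limit: it was at 52.6 RPKM with NICD, 22.9 in the Gal4 control and 27.8 in the *UAS* control, 1.89-fold above the nearer.

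The Her and Hey repressors, the best known direct Notch targets, were the list with the most genes called higher. Of 16 members entered, 12 were higher and none was lower, with a median ratio of 6.48 to the mean of the controls, against 1.04 over all genes entered. Some members had been named as Notch targets from these same libraries, so the count is a description. *her2* (ENSDARG00000038205) was at 350 RPKM with NICD, 42.6 in the Gal4 control and 20.6 in the *UAS* control. The recovered reads were 12908, 2046 and 639, which gave 8.22-fold (interval 7.84 to 8.62). *hey2*, which acts in arteries and heart, was at 56.9 RPKM with NICD, 9.41 in the Gal4 control and 7.78 in the *UAS* control, 6.05-fold higher. *hey1* started from a higher level in the controls, 66.8 and 91.7 RPKM, and was at 224 RPKM with NICD (2.44-fold). *her12* was 7.43-fold and *her8a* 4.302-fold higher.

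The clustered copies were higher as well. The *her4* entries reached 193 to 498 RPKM with NICD, with folds from 7.84 to 15.4, and the *her15* entries were 5.27-fold and 3.62-fold higher. The copies are near-identical, so the value of any single entry is uncertain. A further group of entries with no gene name in the annotation used here (*si:ch211-193l2.3*, *si:ch211-193l2.4*, *si:ch211-193l2.5* and *si:ch211-193l2.7*) were 12.7-fold to 16.4-fold higher, and *si:ch211-193l2.5* reached 715 RPKM with NICD against 56.1 in the Gal4 control and 49.2 in the *UAS* control. Another entry of this series, *si:ch211-193l2.6*, was not called, at 5.64 RPKM with NICD, 3.46 in the Gal4 control and 2.85 in the *UAS* control.

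By contrast, *her6* and *her9*, which were high in the controls as *hey1* was, were not called. *her6* was at 304 RPKM with NICD, 288 in the Gal4 control and 218 in the *UAS* control. *her9* was at 160 RPKM with NICD, 163 in the Gal4 control and 138 in the *UAS* control, so NICD lay between the controls. Both genes were low where Notch cleavage had been blocked in other embryos with the gamma-secretase inhibitor dibenzazepine (DBZ, 10 µM from 24 to 36 hpf): *her6* was at 27.7 RPKM with DBZ and 180 in untreated wild types, and *her9* at 7.17 and 89.7 RPKM. The remaining members *hes6* and *bhlhe40* were not called.

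Genes that act on the pathway were mostly not called: of 25 modulators entered 4 were higher, with a median ratio of 1.095. The feedback inhibitor *nrarpb* was at 24.7 RPKM with NICD, 2.40 in the Gal4 control and 4.501 in the *UAS* control (5.48-fold, interval 5.03 to 5.98). Its paralog *nrarpa* was at 225, 63.6 and 66.9 RPKM (3.36-fold). The E3 ligase gene *dtx1* was 2.32-fold higher and the protease gene *adam10a*, whose product makes the first cut of the receptor, 2.35-fold. *rbpja*, the DNA-binding partner of NICD, was at 12.5 RPKM with NICD, 7.01 in the Gal4 control and 10.396 in the *UAS* control and was not called.

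**Figure D2:**
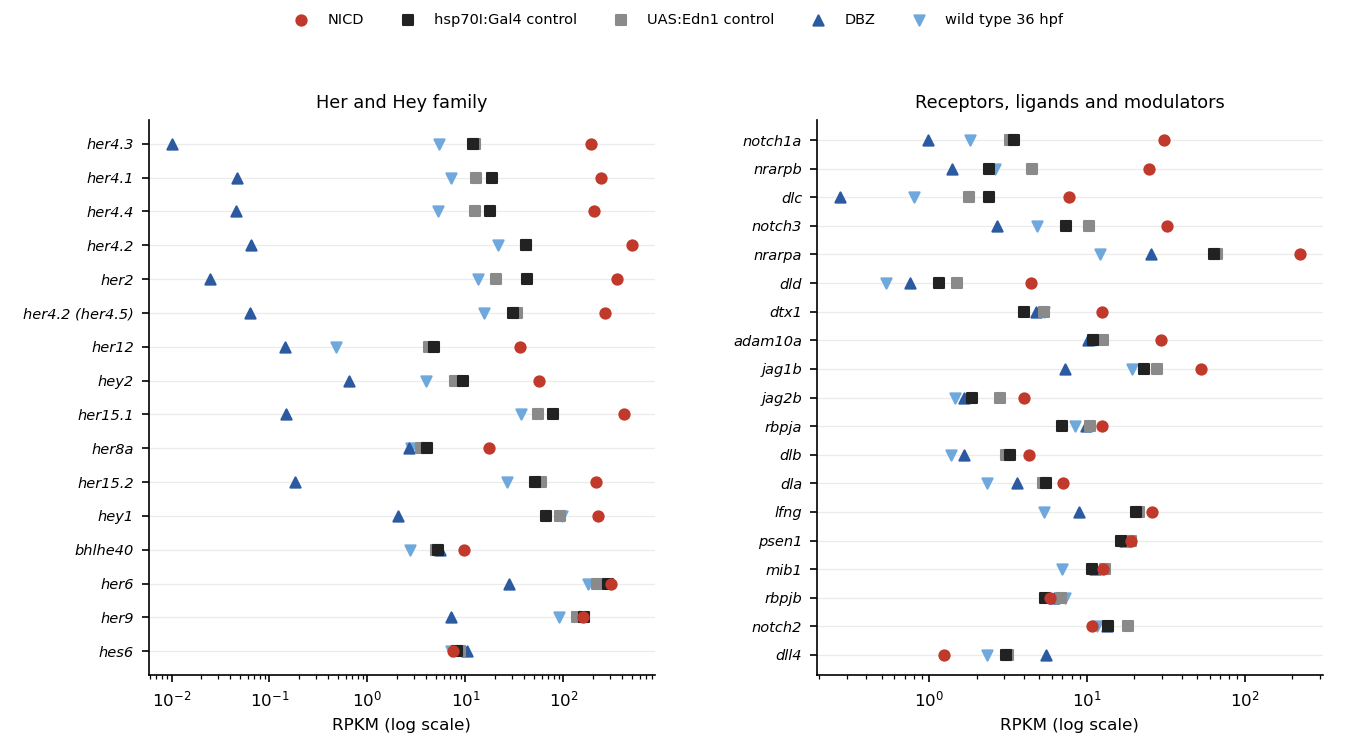
RPKM (log scale) of Her and Hey family genes (left) and of Notch receptors, ligands and selected modulators (right), 1 point a library: NICD, the 2 heat-shocked controls, DBZ and untreated wild type at 36 hpf. A value under 0.01 is drawn at 0.01. NICD lies at least 2-fold to the right of both controls for the *her4*, *her2*, *her15* and Hey genes. For *her6* it lies to the right of both by less than 2-fold, and for *her9* and *hes6* it does not lie to the right of both.

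The list of lower arch genes taken to depend on Edn1 held the most genes called lower. Of 25 entered, 15 were lower, 1 was higher and 9 were not called, with a median ratio of 0.335. Part of this list had been picked as Edn1-activated or Notch-inhibited from these same libraries, and its direction is therefore no independent evidence. The Dlx genes pattern the arches from upper to lower. *dlx4a* (ENSDARG00000011956) was at 2.74 RPKM with NICD, 74.4 in the Gal4 control and 96.1 in the *UAS* control (27.1-fold lower). *dlx4b* was at 2.10 RPKM with NICD, 32.9 in the Gal4 control and 44.0 in the *UAS* control (15.7-fold, interval 13.1 to 18.8). *dlx3b* was at 4.82 RPKM with NICD, 65.4 in the Gal4 control and 76.2 in the *UAS* control (13.6-fold, interval 12.2 to 15.11). The distance between NICD and the controls thus exceeded by far the distance between the controls for these 3 genes.

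*dlx5a* and *dlx6a*, whose domain reaches further dorsally, differed by smaller folds. *dlx5a* was at 13.9 RPKM with NICD, 86.6 in the Gal4 control and 104 in the *UAS* control (6.23-fold), and *dlx6a* was 6.61-fold lower. The noncoding RNA made between them, *Evf1/2* (*si:ch73-351f10.4*), was at 0.135 RPKM with NICD, 4.94 in the Gal4 control and 8.31 in the *UAS* control (36.7-fold lower on 10, 478 and 520 reads, interval 19.8 to 77.0). By contrast, *dlx2a* and *dlx1a*, which span the whole arch, were not called. *dlx1a* was at 23.4 RPKM with NICD, 41.6 in the Gal4 control and 49.2 in the *UAS* control.

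Transcription factors of the lower and intermediate arch were lower too. *hand2*, the gene for a factor of the ventral arch, was at 10.04 RPKM with NICD, 78.7 in the Gal4 control and 107 in the *UAS* control (7.84-fold, interval 7.29 to 8.45). *nkx3.2*, which marks the jaw joint, was at 0.662, 7.71 and 6.68 RPKM (10.1-fold). *barx1*, which marks early condensations of cartilage precursors, was at 12.6 RPKM with NICD, 66.2 in the Gal4 control and 66.9 in the *UAS* control (5.26-fold, interval 4.90 to 5.66). Also lower were *epha4b* (7.27-fold), *msxe* (3.66-fold), *foxd1* (2.85-fold), *emx2* (2.46-fold) and *msxb* (2.10-fold).

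Some genes listed as Edn1-dependent were not called lower. *grem2b*, a Bmp antagonist gene of the arch, was at 137 RPKM with NICD, 138 in the Gal4 control and 119 in the *UAS* control. *gsc*, a homeobox gene, was at 8.82 RPKM with NICD, 9.90 in the Gal4 control and 9.58 in the *UAS* control. Of the endothelin receptors, *ednraa* was not called, at 77.1, 53.3 and 61.1 RPKM, and *ednrab* was higher. *ednrab* was at 142 RPKM with NICD, 44.5 in the Gal4 control and 43.2 in the *UAS* control (3.18-fold), and in untreated wild types it stood at 396 RPKM at 20 hpf, 108 at 28 hpf and 7.86 at 36 hpf. Both controls were thus well above the wild-type 36 hpf level of this gene.

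The largest fold of all lay outside the patterning genes. *fgfbp2a* (ENSDARG00000039964), which encodes an Fgf binding protein, was at 0.0421 RPKM with NICD, 4.41 in the Gal4 control and 4.18 in the *UAS* control. The reads were 3, 409 and 251, so the ratio of 99.2 has a wide interval of 33.6 to 484. It was the sole gene called among 23 cartilage and bone genes entered, whose median ratio was 0.84. The cartilage collagen *col2a1a* was at 20.0 RPKM with NICD, 24.9 in the Gal4 control and 22.8 in the *UAS* control, and *sox5* and *sox6*, which help Sox9 drive cartilage, were not called.

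Upper arch genes showed no call in either direction. Of 24 entered, 12 lay above both controls, 10 below both and 2 between, with a median ratio of 1.09. The list is not limited to dorsal genes: it also holds *dlx1a* and *dlx2a*, which span the whole arch and lay below both controls. *pou3f3b*, a dorsal arch factor, came closest to the limit, at 81.8 RPKM with NICD, 32.04 in the Gal4 control and 42.6 in the *UAS* control (1.92-fold above the nearer). The orphan nuclear receptor gene *nr2f1b* was at 95.4 RPKM with NICD, 51.2 in the Gal4 control and 86.7 in the *UAS* control, hardly above the *UAS* control. *twist1a*, a mesenchyme factor, was at 78.6 RPKM with NICD, 143 in the Gal4 control and 130 in the *UAS* control (1.65-fold below the nearer). *prrx1a* and *prrx1b* differed from the nearer control by 1.03-fold and 1.07-fold. In the paper's images of embryos, NICD raised both genes ventrally and reduced them dorsally. A level over the pooled arch cells cannot show such opposite changes. Against the Gal4 control alone, *pou3f3b* would have been called higher.

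Oral and frontonasal genes went both ways. *pax9*, needed for tooth and palate development in mice, was at 15.8 RPKM with NICD, 5.72 in the Gal4 control and 6.07 in the *UAS* control (2.60-fold higher), but unshocked wild types and *jag1b* siblings stood at 11.9 and 12.7 RPKM, and with them as controls the call was lost (1.24-fold). *osr1* was 2.97-fold lower and *shox* 12.01-fold lower. *lhx6* and *lhx8a*, factors of the oral side of the first arch, were not called. These 3 called genes were out of 14 entered.

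**Figure D3:**
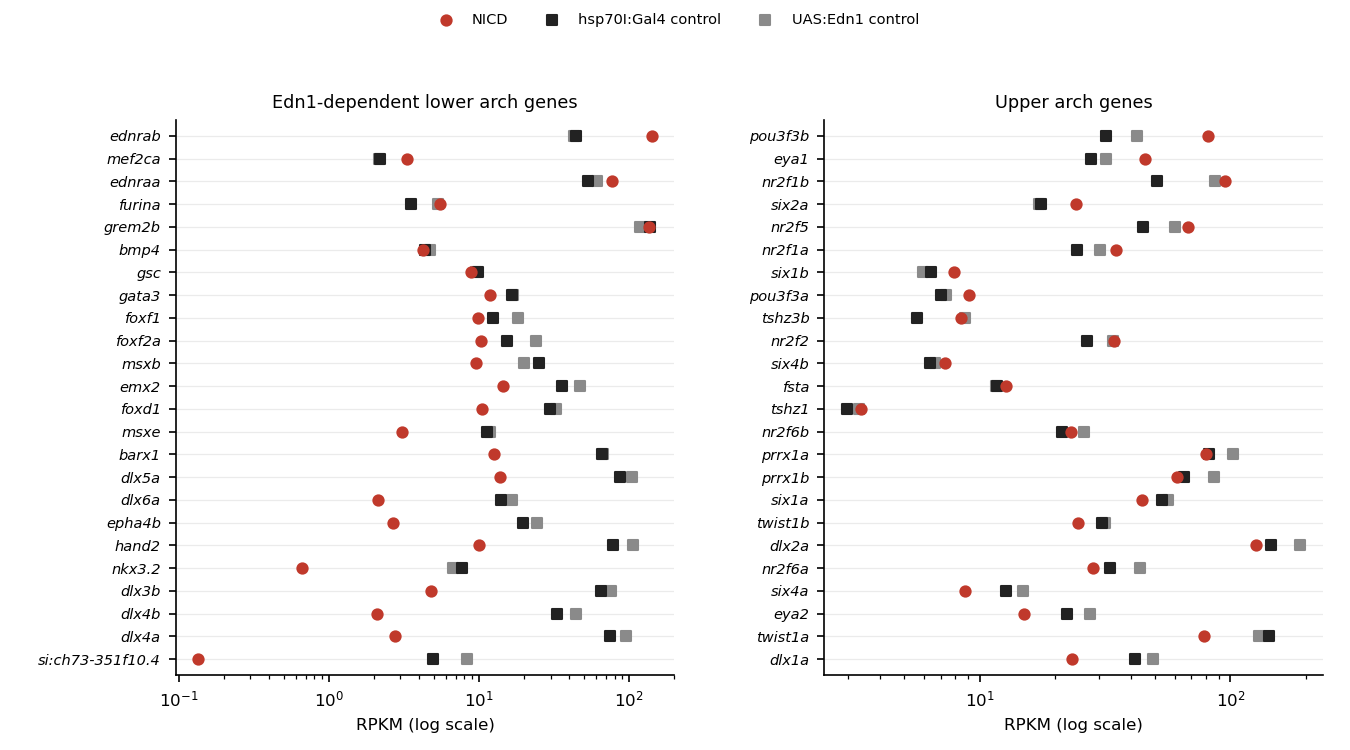
RPKM (log scale) of Edn1-dependent lower arch genes (left) and upper arch genes (right) with NICD and in the 2 heat-shocked controls, 1 point a library. In the left panel NICD lies at least 2-fold to the left of both controls for most genes, and in the right panel no gene reaches a 2-fold distance from the nearer control.

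The largest gain with NICD was in a gene of mural cells, the pericytes and smooth muscle cells on the outside of vessels. *abcc9* (ENSDARG00000015985) encodes the regulatory subunit of a potassium channel closed by ATP. It was at 41.6 RPKM with NICD, 1.17 in the Gal4 control and 0.682 in the *UAS* control (35.4-fold). *kcnj8* (ENSDARG00000045589), which encodes the pore of the same channel and was chosen after its values were seen, was at 21.1 RPKM with NICD, 1.096 in the Gal4 control and 1.33 in the *UAS* control (15.8-fold on 1259, 85 and 67 reads, interval 12.4 to 20.6). Both subunits were near or under 1.33 RPKM in the controls.

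Of 14 mural cell genes entered, 6 were higher and none was lower, with a median ratio of 2.12. Of the 12 that reached 3 RPKM in a control, 4 were higher. Of the 6 called, 3 were at least 1.5-fold higher in cells with *sox10*:DsRed alone than in double-positive wild-type cells, and 3 were lower. *mcamb* was at 25.9 RPKM in cells with *sox10*:DsRed alone and 26.4 with NICD. The listed *cspg4* and *rgs5a* did not enter, at 2.42 and 0.123 RPKM with NICD. In the Gal4 control they were at 1.40 and 0.104 RPKM, and in the *UAS* control at 2.77 and 0.0536. *PDGFRB*, the receptor gene used to mark pericytes, was at 28.6 RPKM with NICD, 4.81 in the Gal4 control and 7.25 in the *UAS* control (3.95-fold, interval 3.66 to 4.28). The Wnt antagonist gene *sfrp5* was at 58.7, 7.41 and 5.38 RPKM (7.91-fold). The sphingosine phosphate receptor *s1pr5a* was 4.52-fold, *mcamb* 2.94-fold and *mcama* 2.91-fold higher. The related receptor *s1pr1*, outside the list, was at 159 RPKM with NICD, 32.2 in the Gal4 control and 37.1 in the *UAS* control (4.28-fold).

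The other 8 mural cell genes entered were not called, 4 of them above both controls and 4 below both. At a fold of 1.5, 9 mural cell genes were higher, and at an RPKM minimum of 1, 8 were higher. *pdgfra* was at 26.1 RPKM with NICD, 29.7 in the Gal4 control and 40.8 in the *UAS* control, and *foxc1a* was not called. The smooth muscle genes *acta2* and *myh11a* did not reach 3 RPKM in any of the 3 libraries: *acta2* was at 0.0632 RPKM with NICD and *myh11a* at 0.257. The skeletal actin gene *acta1a*, in contrast, was at 38.6 RPKM with NICD, 3.40 in the Gal4 control and 3.49 in the *UAS* control (11.1-fold). Of 9 muscle genes entered 8 lay above both controls, with a median ratio of 2.33, and 2 were called higher, *acta1a* and *tnni2a.4* (2.01-fold). Of the 9, 3 reached 3 RPKM only with NICD and so had to lie above the controls. Of the 6 that reached it in a control, 5 lay above both and 1 was called higher. All of the 9 except *acta1a* lay inside the range of the controls once the unshocked libraries were added. Summed muscle levels in those libraries were 1118 RPKM in wild types and 341 in *jag1b* siblings, against 95.2 with NICD. The myogenic regulators *myod1* and *myog* were at 0.202 and 0 RPKM with NICD.

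Of 18 members entered from the list of basement membrane, collagen IV and collagen VI genes, 8 were higher, 2 lower and 8 not called, with a median ratio of 2.02. Of the 15 that reached 3 RPKM in a control, 6 were higher. *col4a1* was at 28.8 RPKM with NICD, 5.77 in the Gal4 control and 6.15 in the *UAS* control (4.68-fold). Its partner chain *col4a2* was 4.26-fold higher. The laminin chains *lamb1b* (4.33-fold), *lama1* (2.94-fold), *lama4* (2.48-fold) and *lamc1* (2.38-fold) and the linker *nid2a* (2.02-fold) were higher as well. *mmrn2a*, a multimerin gene, was at 33.0 RPKM with NICD, 3.26 in the Gal4 control and 3.77 in the *UAS* control (8.77-fold). Those not called included the collagen IV genes *col4a5*, at 13.8 RPKM with NICD, 15.9 in the Gal4 control and 19.1 in the *UAS* control, and *col4a6*, at 8.49, 8.38 and 13.6 RPKM.

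The 2 genes of the list called lower encode chains of collagen VI, a bead-like filament of loose connective tissue. *col6a1* was at 1.62 RPKM with NICD, 9.96 in the Gal4 control and 11.3 in the *UAS* control (6.16-fold, interval 5.57 to 6.82). *col6a2* was at 1.72, 6.30 and 8.07 RPKM (3.66-fold). Unshocked wild types had 2.89 RPKM of *col6a2*, and with the unshocked libraries as controls it lost its call (1.68-fold). Outside the list, and chosen after their values were seen, *col6a6* was 3.13-fold lower and *ctgfb* was at 3.84 RPKM with NICD, 22.9 in the Gal4 control and 27.1 in the *UAS* control (5.95-fold). *fbln1* was 4.46-fold and *lum* 2.03-fold lower.

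**Figure D4:**
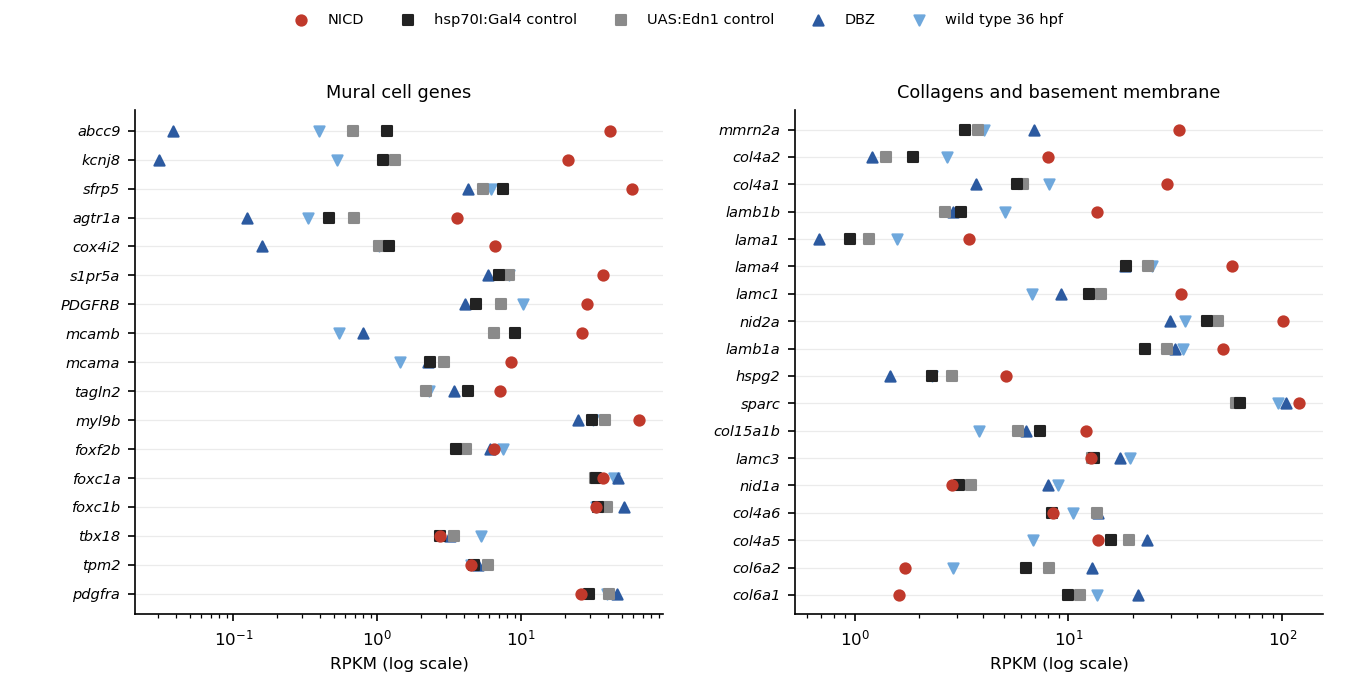
RPKM (log scale) of mural cell genes (left, with *kcnj8*, *cox4i2* and *agtr1a* added after their values were seen) and of collagen and basement membrane genes (right), 1 point a library: NICD, the 2 heat-shocked controls, DBZ and untreated wild type at 36 hpf. *abcc9* and *kcnj8* lie furthest to the right of their controls with NICD and furthest to the left with DBZ, and *col6a1* and *col6a2* are low with NICD and high with DBZ.

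Secreted factors were among the genes with the largest folds. *stc2a* (ENSDARG00000056680), which encodes the glycoprotein stanniocalcin 2, was at 65.4 RPKM with NICD, 2.26 in the Gal4 control and 1.69 in the *UAS* control (29.0-fold on 7956, 358 and 173 reads, interval 26.04 to 32.3). *ptgdsa*, a prostaglandin D synthase gene, was at 4.98 RPKM with NICD, 0.235 in the Gal4 control and 0.0681 in the *UAS* control (21.2-fold). *gfra2b*, a coreceptor gene of the Gdnf family, was at 3.33, 0.163 and 0.116 RPKM (20.5-fold). The glypican gene *gpc5c* (*CU467828.1*) was at 8.22, 0.257 and 0.143 RPKM. Among the lower genes, *nell3* was at 0.536 RPKM with NICD, 4.14 in the Gal4 control and 4.47 in the *UAS* control (7.72-fold), and *METRNL (1 of 2)*, a meteorin-like gene, was 7.07-fold lower. The endothelial junction gene *esama* (14.4-fold) and the endothelial transcription factor gene *sox18* (14.3-fold) were higher, but stayed under 10 RPKM with NICD.

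Vasculature genes were few among those entered. Of 27 entries on the list 7 were entered, 5 of them above both controls and 3 called higher, *esama*, *sox18* and the lipase gene *lipg*. Of these, *esama* and *sox18* reached 3 RPKM only with NICD and so had to lie above the controls. Of the 5 genes that reached it in a control, 3 lay above both controls and 2 below both, and 1 was called higher. *lipg* was at 46.7 RPKM with NICD, 7.04 in the Gal4 control and 6.35 in the *UAS* control. The endothelial receptor gene *tie1* was at 1.42, 0.278 and 0.264 RPKM, under the minimum for entry. *kdrl*, which encodes a Vegf receptor of endothelium, was at 3.80 RPKM with NICD, 4.48 in the Gal4 control and 6.16 in the *UAS* control, and *cdh5* was at 0.717, 0.800 and 1.003 RPKM. The summed level of the list was 180 RPKM with NICD, 102 in the Gal4 control and 125 in the *UAS* control. The sum was 537 RPKM in cells with *fli1a*:EGFP alone. Much of the sum in the 3 libraries came from *lipg* and from *fli1a*, whose label also marks arch crest. *fli1a* was at 79.98 RPKM with NICD, 57.0 in the Gal4 control and 77.3 in the *UAS* control. The sum is therefore no measure of endothelial RNA, and *kdrl* and *cdh5* were below both controls.

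Of 11 glia and pigment genes entered 9 were called higher, with a median ratio of 5.03. Of these 9, 6 reached 3 RPKM only with NICD and so had to lie above the controls, and 3 of the 5 that reached it in a control were higher. *sox10*, the crest and glia factor whose regulatory sequence drives the sort label, was at 73.4 RPKM with NICD, 16.4 in the Gal4 control and 9.90 in the *UAS* control (4.47-fold). *fabp7a*, a gene of glial precursors, was at 228 RPKM with NICD, 40.8 in the Gal4 control and 22.6 in the *UAS* control (5.58-fold). *foxd3*, a crest specifier, was 3.84-fold and *erbb3b*, the glial receptor for neuregulin, 3.79-fold higher. The melanin genes *tyrp1b* (5.70-fold), *pmela* (7.99-fold) and *dct* (3.39-fold) were higher but reached only 4.11 to 7.36 RPKM.

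The same genes were high in cells with *sox10*:DsRed alone. There, *sox10* was at 161 RPKM, *fabp7a* at 605, *tyrp1b* at 185 and *dct* at 112. The list summed to 4886 RPKM in those cells, to 402 with NICD, to 105 in the Gal4 control and to 86.1 in the *UAS* control. Its other 2 members were not called: *gch2*, of the xanthophore pigment pathway, was at 12.9 RPKM with NICD, 11.3 in the Gal4 control and 18.2 in the *UAS* control, against 3285 RPKM in *sox10*-only cells, and *pnp4a*, an iridophore gene, was at 14.4, 16.0 and 19.6 RPKM. The mature glia genes *mpz* and *plp1a* were at 0.0625 and 1.85 RPKM with NICD.

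Ear and epidermal genes of *sox10*-only cells were also partly higher. The otolith gene *stm* was at 20.0 RPKM with NICD, 2.89 in the Gal4 control and 1.41 in the *UAS* control, and at 152 RPKM in *sox10*-only cells. *oc90*, another otolith gene, was at 5.58 RPKM with NICD, 8.17 in the Gal4 control and 10.2 in the *UAS* control. Of 9 ear genes entered, 2 were higher, both at 3 RPKM only with NICD, and 1 (*dlx6a*) lower, and of 9 epidermis genes the 2 claudins *cldna* and *cldnb* were higher. The summed ear level was 199 RPKM with NICD, 139 in the Gal4 control and 137 in the *UAS* control. For epidermis the sums were 419, 443 and 374 RPKM.

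Across genes, levels in *sox10*-only cells moved with the calls. Of the 284 genes higher with NICD, 144 (50.7%) were at least 2-fold higher in *sox10*-only than in double-positive cells, against 7.11% of all genes entered. Many of these genes passed the minimum only with NICD. Among genes that reached 3 RPKM in a control, 50 of the 121 called higher (41.3%) were at least 2-fold higher in *sox10*-only cells, against 5.65% of all 8091. Of 115 genes entered that were at least 10-fold higher in *sox10*-only cells, 50 passed only with NICD. Of the other 65, 36 (55.4%) lay above both controls, 13 (20%) lay below both, 17 were called higher and 1 lower. Over all genes with a control at 3 RPKM, 36.7% lay above and 32.1% below both controls by any amount, and over all genes entered 40.2% and 30.3%. The levels of these 65 genes with NICD were 3.46% of the *sox10*-only level at the 10th percentile, 13.7% at the median and 186% at the 90th percentile. In the higher control these figures were 5.09%, 15% and 32.5%. In cells with *fli1a*:EGFP alone, 120 of the 284 (42.3%) were at least 1.5-fold higher than in double-positive cells, against 7.26% of all genes. By the same limit 44 (15.5%) were lower, against 17.4%. Of the 121 with a control at 3 RPKM, 45 (37.2%) were higher by this limit, against 6.04% of all 8091. A further 19 (15.7%) were lower, against 17.6%. At the 2-fold limit used for *sox10*-only cells, 89 of the 284 were higher in *fli1a*-only cells. The part of single-positive cells in the result was not tested.

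Without the genes that were at least 2-fold higher in either single-positive population, 122 genes were higher and 91 lower with NICD. The 9 glia and pigment genes were then all left out, 3 Her and Hey genes remained of 12, and 4 mural cell genes remained of 6. *abcc9*, at 0.189 RPKM in *sox10*-only and 0.115 in *fli1a*-only cells, and *kcnj8*, at 0.0336 and 0.257 RPKM, were lower in both single-positive populations than with NICD. *her4.1* reached 242 RPKM with NICD, above the 87.7 RPKM of *sox10*-only cells and the 28.3 RPKM of *fli1a*-only cells.

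Blood genes set the controls apart. Of 16 blood and myeloid genes entered none was called, and 11 lay between the controls. Their summed level was 681 RPKM with NICD, 1521 in the Gal4 control and 234 in the *UAS* control. Neuron genes had 1 call among 10 entered: *elavl3* was 2.21-fold lower. In unshocked wild types *elavl3* was at 2.19 RPKM, below the 3.80 RPKM with NICD, so that the call was lost with the unshocked libraries as controls.

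Of 39 cell cycle genes entered, 30 (76.9%) were below both heat-shocked controls, against 30.3% of all genes, with a median ratio of 0.825, and 1 was called. With the unshocked libraries added, 5 lay below all 4 controls. The summed level was 2033 RPKM with NICD, 2310.1 in the Gal4 control and 2711 in the *UAS* control, but 1896 in unshocked wild types and 1827 in *jag1b* siblings. The gene called, *mycn*, a growth and proliferation factor, was at 45.7 RPKM with NICD, 96.5 in the Gal4 control and 124 in the *UAS* control (2.11-fold lower), and unshocked wild types had 27.4 RPKM. The replication clamp gene *pcna* was at 452, 514 and 539 RPKM. Of 28 heat shock and stress genes, 2 were higher, *egr2a* (4.001-fold) and *gadd45ba* (2.97-fold). The heat shock gene *hsp70l* was at 13.7 RPKM with NICD, 13.99 in the Gal4 control and 12.4 in the *UAS* control.

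Loss of Notch signaling was measured in libraries that share none with the comparison above. These were DBZ-treated against untreated wild types, and *jag1b* mutants against their wild-type siblings, each with 1 library a group. Of the 284 genes higher with NICD, 81 (28.5%) were at least 1.5-fold lower with DBZ, against 12.3% of all genes entered. A further 61 (21.5%) were higher with DBZ, against 12.5%. In *jag1b* mutants, 65 (22.9%) were lower, against 2.56% of all genes, and 9 (3.17%) were higher, against 0.875%. Both shares thus exceeded those of all genes entered in both comparisons. The wild-type and *jag1b* sibling libraries, neither of which had lost Notch signaling, differed almost as much as DBZ-treated and wild-type cells did: in wild types against siblings, 76 of the 284 (26.8%) were lower and 60 (21.1%) higher by the same limit, against 11% and 13.9% of all genes. The DBZ shares were thus about those between 2 libraries with intact Notch signaling. Among the 121 genes called higher that reached 3 RPKM in a control, 36 (29.8%) were lower and 26 (21.5%) higher with DBZ. Over all 8091 genes with a control at 3 RPKM, both shares were 11.9%. In *jag1b* mutants 30 (24.8%) of the 121 were lower and 1 (0.826%) higher, against 2.08% and 0.704%. The share higher in *jag1b* mutants was thus close to that of all genes once the genes passing only with NICD were left out.

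A set of 34 genes (12% of those higher with NICD, against 0.922% of all genes) was lower in both losses. It held 9 entries of the Her and Hey family, most of them near-identical *her4* and *her15* copies. Also in it were the ligand *dlc*, the basement membrane genes *col4a1*, *col4a2*, *lama1* and *lamb1b*, and *kcnj8*, *cox4i2*, *stc2a*, *gfra2b* and *ppp1r14aa*. The set was not limited to genes that reached 3 RPKM in a control, and *gfra2b* was at most 0.105 RPKM in the libraries of both losses. Another 3 genes (1.06%, against 0.233% of all genes), *ptgdsa* among them, were higher in both losses. *her2* was at 1 read with DBZ and 527 reads in untreated wild types, and at 12.6 RPKM in *jag1b* mutants against 34.2 in siblings. *stc2a* was at 0.537 RPKM with DBZ and 1.39 in untreated wild types, and at 0.202 RPKM in *jag1b* mutants and 1.13 in siblings. *kcnj8* was at 2 reads with DBZ and 33 in wild types. For *abcc9*, the levels were 0.0381 RPKM with DBZ and 0.391 in wild types, but 0.277 in *jag1b* mutants and 0.304 in siblings.

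Higher genes did not all follow that pattern. *nrarpa* was at 25.5 RPKM with DBZ and 12.03 in untreated wild types, and *her8a* was at 2.68 and 2.75 RPKM. *hey1* was at 2.04 RPKM with DBZ and 97.8 in wild types, but at 76.7 RPKM in *jag1b* mutants. The upper arch genes *pou3f3b* and *nr2f1b*, neither of them called, were 2.09-fold and 3.62-fold lower with DBZ, and 2.02-fold and 2.94-fold lower in *jag1b* mutants. Of the 24 upper arch genes entered, only 2 were at least 1.5-fold lower with DBZ, and 2 were higher. In *jag1b* mutants 3 of the 24 were lower and 0 higher.

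Among the 104 genes lower with NICD, 37 (35.6%) were at least 1.5-fold higher with DBZ and 16 (15.4%) were lower, against 12.5% and 12.3% of all genes. Between wild types and *jag1b* siblings, 25 of the 104 (24%) were higher and 29 (27.9%) lower in wild types. In *jag1b* mutants 9 (8.65%) were higher and 3 (2.88%) lower, against 0.875% and 2.56% of all genes. *nkx3.2* was at 49.7 RPKM with DBZ and 16.9 in untreated wild types, and at 50.1 RPKM in *jag1b* mutants against 33.8 in siblings. By the same limit 2 of the 104 (1.92%, against 0.233% of all genes) were higher in both losses. As many, 2 (1.92%, against 0.922%), were lower in both, *emx2* among them. *Evf1/2* was among the 2 that were higher in both losses, at 8.41 RPKM with DBZ against 4.25, and at 16.7 RPKM in *jag1b* mutants against 9.39. *hand2* and *barx1* were not: *barx1* was at 79.3 RPKM with DBZ and 83.0 in wild types. Of the 15 lower arch genes called, 6 were higher and 1 lower with DBZ, and 1 was higher and 1 lower in *jag1b* mutants. Of the 9 members not called, 2 were higher and 2 lower with DBZ.

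In wild types, most genes lower with NICD rose early in arch development. From 20 to 28 hpf, 70 of the 104 (67.3%) were at least 1.5-fold higher, against 17.9% of all genes, with a median fold of 2.04 against 1.07, and 6 (5.77%) were lower, against 8.54%. *hand2* went from 0.760 to 73.5 RPKM, *barx1* from 4.58 to 57.4 RPKM and *fgfbp2a* from 0.119 to 4.91 RPKM. With NICD at 36 hpf, *hand2* stood at 10.04 RPKM, between its wild-type levels at 20 and 28 hpf. Of the 15 lower arch genes called, 14 were higher at 28 than at 20 hpf, and so were 6 of the 9 not called and 20 of all 25 entered. So were 18 of the 24 upper arch genes, none of them called, and 16 of the 23 cartilage and bone genes, 1 of them called. In both lists 0 were lower. The early rise was thus not particular to the genes lower with NICD.

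Genes higher with NICD tended to fall later. From 28 to 36 hpf, 141 of the 284 (49.6%) were at least 1.5-fold lower in wild types, against 21.6% of all genes, and 56 (19.7%) were higher, against 12.9%. Among genes that reached 3 RPKM in a control, 51 of the 121 called higher (42.1%) were lower, against 20.6%, and 25 (20.7%) were higher, against 12.5%. From 20 to 28 hpf, 112 of the 284 (39.4%) were higher, against 17.9% of all genes, and 67 (23.6%) lower, against 8.54%. *her2* was at 165 RPKM at 20 hpf, 87.2 at 28 hpf and 13.5 at 36 hpf in wild types, and at 350 RPKM with NICD. *stc2a* was at 2.96, 2.07 and 1.39 RPKM at these stages, so no wild-type stage came near its 65.4 RPKM with NICD. *abcc9* was between 0.168 and 0.654 RPKM at all 3 stages.

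**Figure D5:**
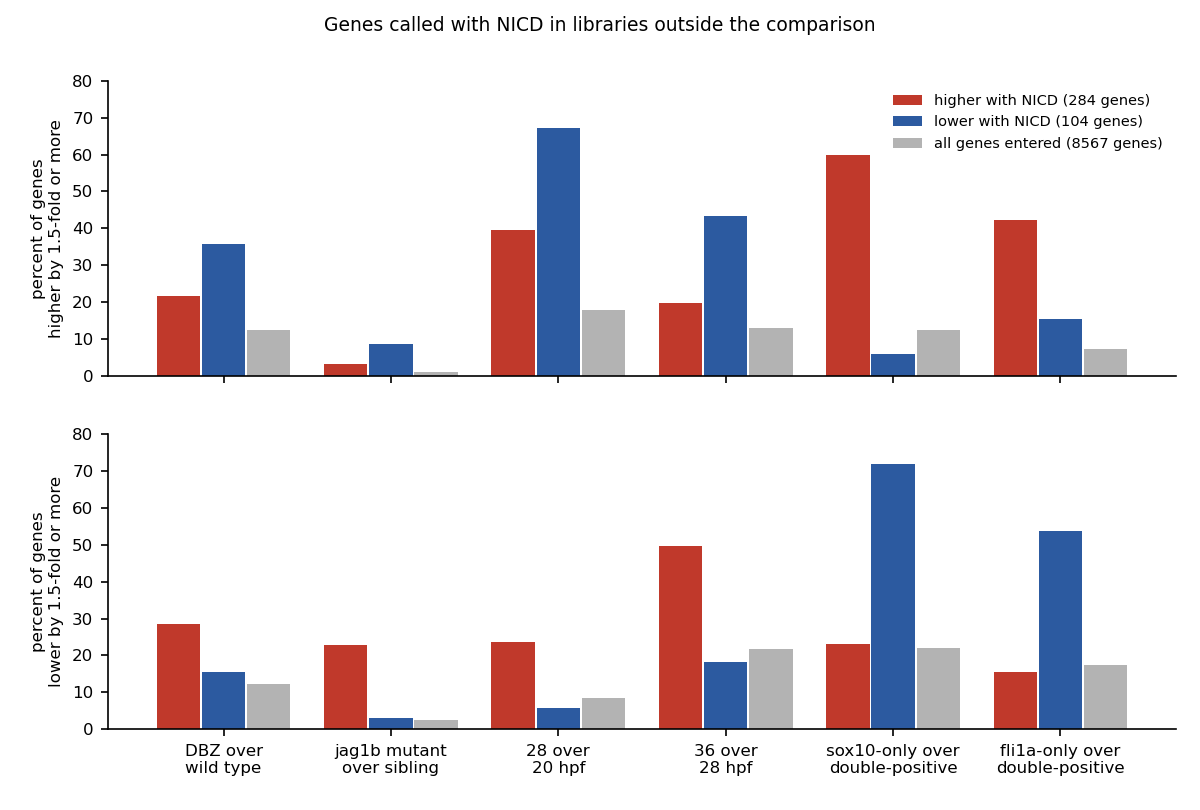
Percent of genes at least 1.5-fold higher (top) or lower (bottom) in 6 library pairs outside the NICD comparison, for the 284 genes higher with NICD (red), the 104 genes lower (blue) and all 8567 genes entered (grey). The tallest bars are the lower genes in *sox10*-only cells (72.1% lower) and from 20 to 28 hpf (67.3% higher). Next are the higher genes in *sox10*-only cells (59.9% higher). The bars include genes that passed the minimum only with NICD. Among genes with a control at 3 RPKM, 48.8% of those called higher were higher in *sox10*-only cells, against 10.5% of all.

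Loss of Edn1 touched many of the same genes. Of the 104 genes lower with NICD, 48 (46.2%) were also at least 1.5-fold lower in *edn1* mutants than in wild types at 36 hpf, against 8.32% of all genes. A further 12 (11.5%) were higher, against 24.1%. These shares include the 68 genes under 3 RPKM with NICD, which passed the minimum only through a control. They were not repeated without those genes. Of the 15 lower arch genes called lower, 12 were lower and 1 was higher in *edn1* mutants. Part of this list had been picked as Edn1-activated with the *edn1* mutant library in use, so that count is no independent evidence. Of the 9 listed lower arch genes not called, 0 were lower and 4 were higher, and *ednrab*, called higher with NICD, was higher too. The name of the list thus did not hold for those genes by this measure. The *edn1* mutant and DBZ comparisons share the wild-type library. *dlx3b* was at 1.38 RPKM in *edn1* mutants and 35.4 in wild types, beside 4.82 with NICD. *hand2* was at 45.7 RPKM in *edn1* mutants and 73.0 in wild types, beside 10.04 with NICD. *barx1* was at 53.6 and 83.0 RPKM, beside 12.6 with NICD. For the reverse perturbation, *hsp70I*:Gal4; *UAS*:Edn1 embryos, which share both controls with NICD, *dlx3b* was at 99.2 RPKM, *dlx4a* at 152, *hand2* at 74.6 and *barx1* at 63.4. There *dlx3b* and *dlx4a* lay above both heat-shocked controls, but *hand2* and *barx1* lay below both.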

How the data were processed

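Per the labels, RNA of sorted cells was made into SMARTer cDNA libraries and sequenced on Illumina machines of 2 models. Which library ran on which machine is not given in the sources used here. The authors trimmed and aligned the reads to GRCz10 (TopHat2 and Partek in the submitters' processing notes), assigned them to Ensembl release 80, and deposited RPKM values for 27911 genes in 13 libraries. No read totals are given, so depth and whole reads were recovered from RPKM steps (tolerance 0.06 of a read), which gave reads for 257 of the 388 genes called and 35.1% of 1000 sampled genes.

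RPKM was used as deposited, with scipy 1.17.1, pandas 2.3.3, numpy 2.4.6 and matplotlib 3.10.9 under Python 3.11.15. Ratios over a list are medians of NICD against the geometric mean of both controls. The code for the calls was run on simulated data with less spread than the controls showed and with changes larger than the 2-fold limit. That check does not show how reliable the calls are in these libraries.

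Genes named are the 15 with the largest fold in each direction, members of 19 gene lists (481 of 521 names found), genes the study names and *notch1a*; others were chosen after their values were seen. The comparison, its members and the lists were chosen with earlier results of these data known. Alternatives changed the control, scaling, pseudocount, RPKM minimum and fold; 3 more, on wild-type level, control level and single-positive cells, were added after seeing the data. A planned search of promoters for motifs was not run, since no sequences were used here. No coordinates are given, because the tables used here are of GRCz12tu, another build. A lower arch gene that enters the counts is not reported here.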

Additional observations from a re-analysis of the deposited data

How the results depend on the processing

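With 1 library a genotype, no replicate could be left out, and no paired analysis was possible because no group has a second library. The counts depend on the limits by construction, since most alternatives test fewer genes, fewer controls or another fold. The main counts were 284 higher and 104 lower. Against the Gal4 control alone they were 439 and 174, and against the *UAS* control alone 461 and 188. An RPKM minimum of 1 gave 525 and 241, a minimum of 5 gave 181 higher, and a mean of at least 3 RPKM gave 171 higher. A fold of 1.5 gave 698 and 280, and a fold of 3 gave 125 and 43. With 3 RPKM required in wild types as well 116 were higher, with 3 RPKM required in a control 121, and without genes of single-positive cells 122, all 3 settings chosen after seeing the data. Rescaling (262 higher, 104 lower), a pseudocount of 0.1 (270 and 98) and all 4 controls at 36 hpf (220 and 72) stayed within 1.5 times. With all 4 controls, the 2 unshocked ones included, 88 of 95 calls among listed genes and those with the largest folds remained, and *col6a2*, *dll4*, *elavl3*, *mycn*, *pax9*, *tnni2a.4* and *si:dkey-97i18.5* lost theirs. Among lists, Her and Hey genes higher went from 12 to 3 without genes of single-positive cells, and glia and pigment genes from 9 to 0 there, to 5 with a mean of at least 3 RPKM, to 3 with 3 RPKM in a control and to 2 with 3 RPKM in wild types. Mural cell genes went from 6 to 3 with 3 RPKM in wild types. Basement membrane and collagen genes went from 8 to 4 higher at a fold of 3, and from 2 to 1 lower with all 4 controls or 3 RPKM in wild types. Upper arch genes, with none called, had 1 higher against the Gal4 control alone and at a fold of 1.5, 1 lower against the *UAS* control alone, and 2 lower at a fold of 1.5. A count has no direction to reverse, and a gene beyond both controls keeps its side against either one by construction. Rescaling divided the values by 1.044 for NICD, 0.9869 for the Gal4 control and 1.0797 for the *UAS* control. These shifts are too small to reverse a call of at least 2-fold, so the lack of reversals was fixed in advance.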

Other observations

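Other genes lay far from both controls but differed between the controls as well. *si:dkey-97i18.5* was at 0.0290 RPKM with NICD, 11.1 in the Gal4 control and 0.396 in the *UAS* control, and *UBLCP1 (2 of 2)* was at 0.147, 1.004 and 5.39 RPKM. Their folds against the nearer control, 13.6 and 6.84, rest on controls that themselves lie at least 5-fold apart. With the unshocked libraries as controls *si:dkey-97i18.5* lost its call (1.38-fold).

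Some genes outside the lists were chosen after their values were seen. *sema3e*, a semaphorin gene, was at 3.11 RPKM with NICD, 12.4 in the Gal4 control and 14.4 in the *UAS* control (3.97-fold lower), and *sema3fa* was 3.36-fold lower, while the semaphorin genes *sema3aa* and *sema3d* were not called. *gbx2*, a homeobox gene, was at 2.37, 12.97 and 16.6 RPKM (5.48-fold lower). The early growth response gene *egr2b* was at 6.01 RPKM with NICD, 1.01 in the Gal4 control and 0.869 in the *UAS* control, and *EGR4* at 26.8, 6.58 and 7.10 RPKM. *EGR4* fell under the limit (1.95-fold) with the unshocked libraries as controls. *egr1* was not called, at 82.0 RPKM with NICD, 39.6 in the Gal4 control and 48.0 in the *UAS* control, and unshocked wild types had 92.3 RPKM.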
